A study of Sus scrofa with 12 samples.

Results

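Heart muscle RNA differed widely between the 12 infarct samples, and the samples, 1 per pig, are described here by how much of it they carried. For each array, a muscle score was taken as the mean of CSRP3, ATP2A2 and PLN, each minus its mean over the 12 arrays, and the 6 arrays with the highest scores (muscle-rich) were set against the 6 with the lowest (muscle-poor). All 12 arrays of the series are members, 6 of 12 on each side. The arrays were selected by measured values of the same arrays, so every difference below is a description and carries no test. The 3 scoring genes were left out of all counts. All 12 pigs were female Large White animals with an acute myocardial infarction (AMI), made by balloon occlusion of the left anterior descending coronary artery followed by reperfusion. On day 3 post-infarction they received an injection into the pericardial sac, and minced infarcted tissue of the anterior left ventricular wall was collected on day 7 post-therapy. The 4 pigs of AMI/Placebo received vehicle, the 4 of AMI/S-endMSCs the concentrated secretome of mesenchymal stromal cells derived from endometrium (menstrual blood), and the 4 of AMI/S-endMSCs* the secretome of the same kind of cells after priming with IFNγ and TNFα. No uninfarcted heart was analysed here, and each biogroup is a set of separate animals, so the values measure the spread between pigs.

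A healing infarct is a mixture of surviving cardiomyocytes at its border and a granulation tissue of macrophages, fibroblasts and new vessels that replaces the dead muscle. Cardiomyocytes carry a contractile apparatus of thick and thin filaments anchored at Z-discs, a calcium store that is emptied and refilled at each beat, and many mitochondria that burn mainly fatty acids. Bulk RNA of such a piece cannot tell fewer cells of a type from less RNA per cell.

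The scoring genes have separate roles in the cardiomyocyte. CSRP3 encodes the muscle LIM protein of the Z-disc, ATP2A2 the calcium pump of the sarcoplasmic reticulum and PLN phospholamban, which restrains that pump. The log2 level of CSRP3 lay between 7.95 and 12.09 (median 9.70) in the muscle-rich arrays and between 2.82 and 7.50 (median 6.72) in the muscle-poor arrays. The level of PLN lay between 4.72 and 6.57 (median 6.35) and between 3.23 and 4.73 (median 4.48), with the lowest muscle-rich array, AMI/Placebo replicate 4, at the level of AMI/S-endMSCs replicate 4. The level of ATP2A2 lay between 4.49 and 5.67 (median 5.13) and between 3.04 and 4.70 (median 4.59). With the biogroup as a covariate, as below, its difference between the sides was 0.44 ± 0.39 (standard error). It was 0.002 within AMI/Placebo and 0.87 within AMI/S-endMSCs*. ATP2A2 and PLN overlapped between the sides, and CSRP3 did not in the probe set used for the score. A separate probe set of CSRP3 did overlap, with a difference of 2.57 when the biogroup was a covariate. CSRP3 had by far the widest spread of the 3, so it set most of the score.

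The score ran from 2.10 in AMI/S-endMSCs* replicate 1 to -2.94 in AMI/S-endMSCs replicate 1. The muscle-rich side held replicates 1, 4 and 3 of AMI/S-endMSCs* (2.10, 1.71 and 1.19) and replicates 2, 4 and 1 of AMI/Placebo (0.679, 0.525 and -0.195). The muscle-poor side held replicates 4, 2, 3 and 1 of AMI/S-endMSCs (-0.393, -0.496, -0.777 and -2.94), AMI/Placebo replicate 3 (-0.690) and AMI/S-endMSCs* replicate 2 (-0.711). The line between the sides was narrow, since AMI/Placebo replicate 1 at -0.195 was the last array inside the muscle-rich side and AMI/S-endMSCs replicate 4 at -0.393 the first outside it, a gap of 0.199.

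**Figure D1:**
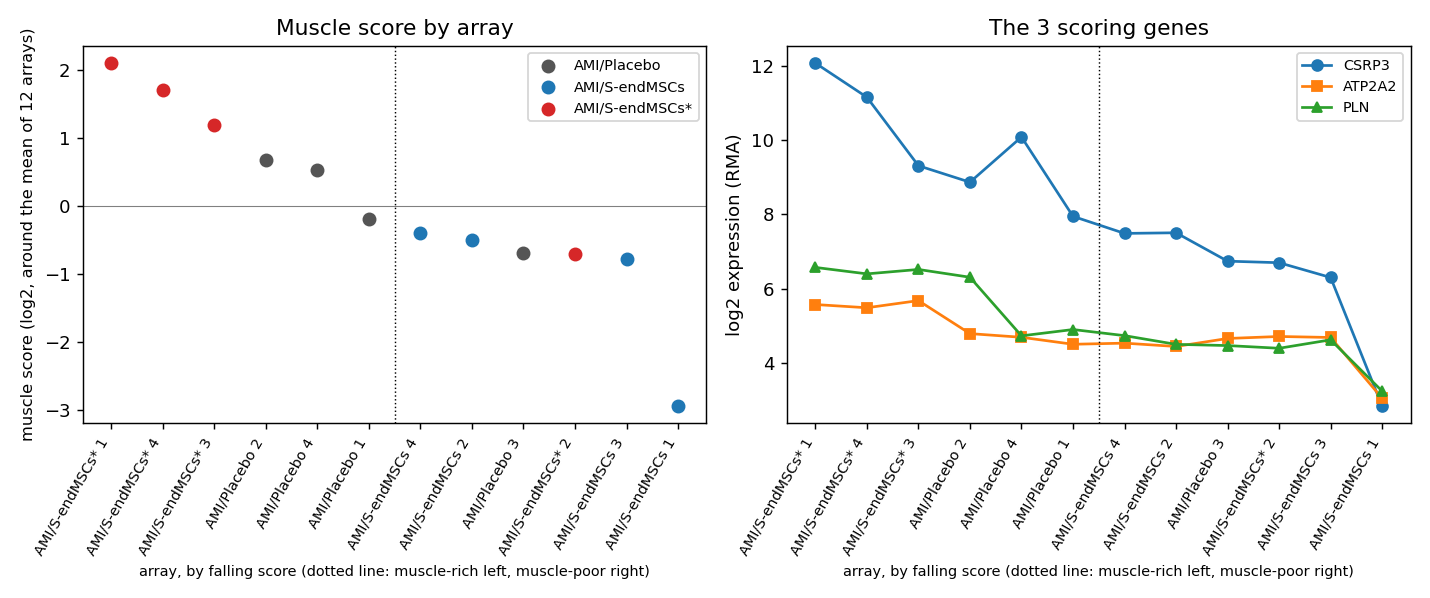
The muscle score of each array (left) and the log2 levels of its 3 scoring genes (right), by falling score, with the 6 muscle-rich arrays left of the dotted line and the 6 muscle-poor arrays right of it. All 4 AMI/S-endMSCs arrays lie on the muscle-poor side, and AMI/S-endMSCs replicate 1 lies far below the rest at -2.94.

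Biogroup and side overlapped strongly. AMI/Placebo and AMI/S-endMSCs* each had 3 muscle-rich arrays and 1 muscle-poor array, while all 4 AMI/S-endMSCs arrays were muscle-poor. With the biogroup as a covariate in limma, AMI/S-endMSCs therefore added nothing to the difference between the sides, which rested on 8 arrays of which 2 were muscle-poor, AMI/Placebo replicate 3 and AMI/S-endMSCs* replicate 2. This adjusted difference (log2, muscle-rich minus muscle-poor, written with ± its standard error) is given first for each gene, followed where they matter by the plain difference between the means of the 6 and 6 arrays and by the differences within AMI/Placebo and within AMI/S-endMSCs* alone. In AMI/S-endMSCs the treatment and the muscle-poor side cannot be told apart.

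AMI/S-endMSCs replicate 1 stood apart from the other arrays, with the lowest score, the lowest mean correlation with the other arrays (0.821, against 0.875 to 0.911 in the rest) and the lowest interquartile range of its log2 values (1.66, against 1.80 to 2.51). It cannot move the adjusted differences, but it entered the residual spread behind their standard errors, the ranges of the muscle-poor side and the plain differences. Without it, the plain difference of the sarcomere list was 1.72 in place of 1.82. The interquartile range, a measure of the contrast of an array, ran from 1.80 to 2.51 (median 2.25) in the muscle-rich arrays. In the muscle-poor arrays it ran from 1.66 to 2.35 (median 2.14). With it as a covariate, 22 of the 25 genes counted below were still counted, but a covariate leaves the overlap of the arrays unchanged. Only the size of the difference could therefore remove a gene. After quantile normalization of the deposited values, which gives all arrays the same contrast, 16 of the 25 were still counted.

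The muscle-poor arrays were not without muscle signal. MYL2, the regulatory light chain of ventricular myosin, was chosen after its values were seen as a bright gene of ventricular muscle. It had a level between 10.30 and 11.83 (median 11.46) in the muscle-rich arrays and between 8.26 and 10.39 (median 9.12) in the muscle-poor arrays, while the median of the means of all probe sets was 2.78. The adjusted difference was 2.39 ± 0.46. The ranges overlapped only narrowly. The names muscle-rich and muscle-poor are thus degrees of 1 scale, and the 16 measured sarcomere genes other than CSRP3 place 10 of the 12 arrays on the same side as the score. The other 2, AMI/Placebo replicate 1 and AMI/S-endMSCs replicate 4, are those that meet at the line.

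Genes were counted when the adjusted difference was at least 1 and the 6 muscle-rich arrays did not overlap the 6 muscle-poor arrays. Of 10909 named genes, 21 were counted as higher on the muscle-rich side, which is 0.193% of the genes, and 4 as lower, which is 0.0367%. With overlap allowed, 230 genes (2.11%) had a difference of at least 1 upward and 232 (2.13%) downward. The median difference of all genes was -0.00 adjusted and -0.03 without the covariate. The rule that chose the arrays used this contrast, and these shares only place the counts below. With the arrays split by the 16 sarcomere genes, only the 2 arrays at the line changed sides. The rule of no overlap then asks for the reverse order of these 2 arrays, so 0 of the 25 genes could still be counted. All 25 adjusted differences kept their sign.

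The counted genes on the muscle-rich side were led by parts of the contractile apparatus and its membrane. ANK3, ankyrin G, which anchors ion channels in the membrane, had a level between 4.75 and 7.27 (median 6.48) in the muscle-rich arrays and between 3.45 and 4.65 (median 4.04) in the muscle-poor arrays. Its adjusted difference was 2.41 ± 0.49, and it was 3.76 within AMI/S-endMSCs* against 1.06 within AMI/Placebo. The 3 muscle-rich AMI/S-endMSCs* arrays were the highest of the 12. MYH7, the slow myosin heavy chain that pig ventricle mainly uses, lay between 9.86 and 11.93 (median 11.02) and between 7.88 and 9.82 (median 8.91), and the adjusted difference was 2.35 ± 0.47. MYH7 values within the biogroups were 1.96 in AMI/Placebo and 2.73 in AMI/S-endMSCs*. Its close relative MYH6 was not analysed here, and probes of related myosins or actins may read more than 1 of them.

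TNNC1, the calcium sensor of the thin filament, lay between 9.58 and 11.15 (median 10.78) in the muscle-rich arrays and between 6.73 and 9.20 (median 8.38) in the muscle-poor arrays, with an adjusted difference of 2.29 ± 0.55. XIRP2, an actin-binding protein of the intercalated disc, lay between 6.55 and 8.02 (median 7.37) and between 4.47 and 5.64 (median 5.29), with a difference of 2.05 ± 0.39. LMOD2, leiomodin 2, which lengthens thin filaments, lay between 5.93 and 8.05 (median 6.81) and between 3.88 and 5.84 (median 5.03), with a difference of 1.98 ± 0.51. The gap between the lowest muscle-rich array and the highest muscle-poor array was 0.38 in TNNC1, 0.91 in XIRP2 and 0.09 in LMOD2, and AMI/S-endMSCs replicate 1 was the lowest array in all 3.

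The whole list of sarcomere and Z-disc genes went the same way. Of its 24 genes besides CSRP3, 16 were measured by a named probe set, and 16 of 16 had an adjusted difference of at least 1, beside 2.11% of all genes, with 4 counted (MYH7, TNNC1, XIRP2 and LMOD2). The median of the list was 2.18 adjusted, 1.82 without the covariate, 1.54 within AMI/Placebo and 2.72 within AMI/S-endMSCs*. The differences ran from 1.01 ± 0.35 for TPM1, the tropomyosin that is also made outside the heart, to 2.94 ± 0.48 for ACTN2, the actinin of the Z-disc. ACTN2 lay between 6.40 and 8.37 (median 7.95) in the muscle-rich arrays and between 4.52 and 6.53 (median 5.10) in the muscle-poor arrays, and the highest muscle-poor array was AMI/S-endMSCs replicate 4. ACTN2 and TPM1 were named after their values were seen. The mean of the list, around its mean over 12 arrays, was 1.55, 1.29 and 1.82 in the muscle-rich AMI/S-endMSCs* arrays and 0.31, 0.77 and -0.38 in the muscle-rich AMI/Placebo arrays. In the muscle-poor arrays it was 0.20, -0.45, -0.996 and -1.65 in AMI/S-endMSCs (replicates 4, 2, 3 and 1), -1.28 in AMI/Placebo and -1.19 in AMI/S-endMSCs*. By this measure AMI/Placebo replicate 1 had less muscle RNA than AMI/S-endMSCs replicate 4.

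**Figure D2:**
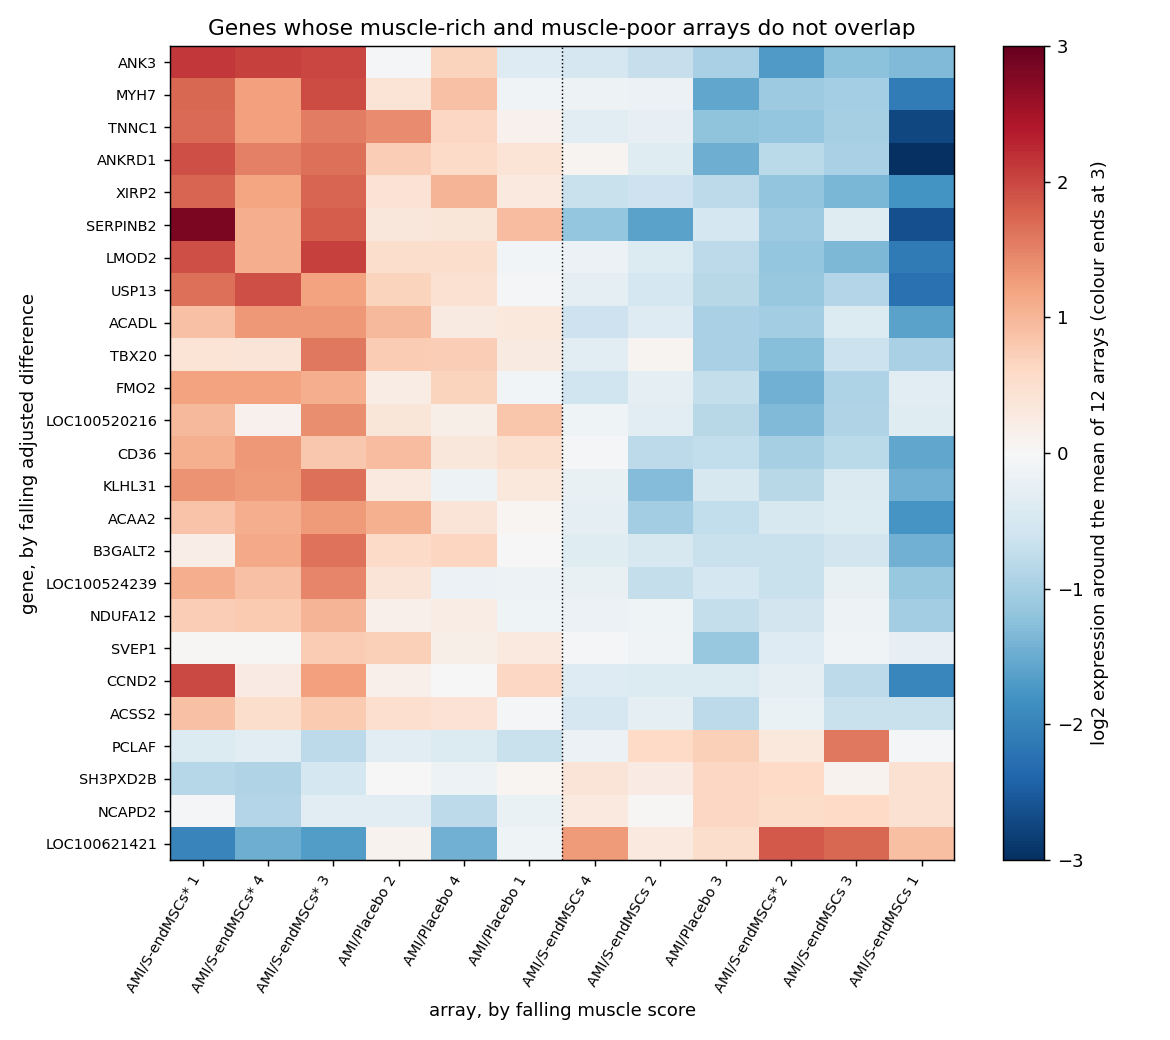
Log2 levels of the 25 counted genes in the 12 arrays, each gene around its own mean, with the arrays by falling muscle score and the genes by falling adjusted difference. The highest array was an AMI/S-endMSCs* array for 21 of the 21 genes higher on the muscle-rich side, and for 12 of them the 3 highest arrays were the 3 of this biogroup on the left. These 3 arrays also had the highest scores, and the rule of no overlap puts the highest array on the muscle-rich side. Shares over all genes were not taken, so the counts only describe the selected genes.

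Among genes of calcium handling and of energy transfer none was counted, and those with a difference of at least 1 overlapped between the sides. RYR2, the release channel of the sarcoplasmic reticulum, lay between 5.16 and 7.54 (median 6.77) in the muscle-rich arrays and between 3.46 and 6.10 (median 4.29) in the muscle-poor arrays, a difference of 2.72 ± 0.54. CASQ2, which stores calcium in that compartment, lay between 6.34 and 8.56 (median 7.42) and between 4.93 and 6.84 (median 5.50), a difference of 2.09 ± 0.46. CAMK2D, the calmodulin-dependent kinase of the cardiomyocyte, had a difference of 1.16 ± 0.73. In RYR2 the overlap came from the highest muscle-poor array, AMI/S-endMSCs replicate 4. Of 11 measured genes of calcium handling and excitation (ATP2A2 and PLN left out), 5 had a difference of at least 1 and 0 of -1 or less, with a median of 0.68 adjusted, 0.23 within AMI/Placebo and 1.26 within AMI/S-endMSCs*. GJA1, the gap junction protein connexin 43, which fibroblasts and vessels also make, had a difference of -0.30 ± 0.60, with arrays between 4.24 and 7.14 (median 5.76) and between 4.89 and 6.81 (median 5.67). RYR2 and GJA1 were named after their values were seen.

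CKMT2, the mitochondrial creatine kinase of muscle, lay between 5.75 and 8.53 (median 7.19) in the muscle-rich arrays and between 3.95 and 5.93 (median 4.91) in the muscle-poor arrays, with a difference of 2.75 ± 0.47. FABP3, the fatty acid carrier of the heart cell, lay between 4.95 and 8.25 (median 7.07) and between 3.63 and 7.06 (median 4.70), with a difference of 2.71 ± 0.62. Both were lower in AMI/Placebo replicate 3 and AMI/S-endMSCs* replicate 2 than in every other array of their biogroups. Of 7 measured genes of creatine, oxygen and energy transfer, 6 had a difference of at least 1, and the median was 1.62 adjusted and 1.41 without the covariate.

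Genes of the stressed and the fetal heart were higher on the muscle-rich side together with the sarcomere. ANKRD1, a titin-binding protein that strained cardiomyocytes make, lay between 9.03 and 10.54 (median 9.75) in the muscle-rich arrays and between 5.29 and 8.71 (median 7.73) in the muscle-poor arrays. Its difference was 2.28 ± 0.64, with 2.04 within AMI/Placebo and 2.51 within AMI/S-endMSCs*. NPPA, atrial natriuretic peptide, lay between 3.67 and 9.46 (median 5.56) and between 2.50 and 4.66 (median 3.53), with a difference of 3.21 ± 0.98. NPPB, the B-type natriuretic peptide released by stretched muscle, lay between 4.50 and 7.77 (median 5.47) and between 3.04 and 4.72 (median 3.49), with a difference of 2.57 ± 0.67. The natriuretic peptides overlapped between the sides, and NPPA reached 9.46 in a single array, AMI/S-endMSCs* replicate 1. They were named after their values were seen. Of 14 measured genes of the list, which shares MYH7 with the sarcomere list, 7 had a difference of at least 1 and 2 were counted. The median was 1.31 adjusted and 1.05 without the covariate. The mean of the list did not overlap, lying between 0.24 and 1.19 in the muscle-rich arrays and between -0.88 and -0.06 in the muscle-poor arrays.

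Cardiac transcription factors were close to even as a list. TBX20, a T-box factor of the heart, was its counted member, with levels between 5.37 and 6.70 (median 5.68) in the muscle-rich arrays and between 3.83 and 5.18 (median 4.31) in the muscle-poor arrays and a difference of 1.81 ± 0.37. It was 1.55 within AMI/Placebo and 2.07 within AMI/S-endMSCs*. HAND2, a basic helix-loop-helix factor of the heart, had a difference of 1.31 ± 0.52, which was 0.20 within AMI/Placebo and 2.43 within AMI/S-endMSCs*, and it was named after its values were seen. The median of the 13 measured factors was 0.18, and 2 of 13 had a difference of at least 1.

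Genes of fatty acid use were higher on the muscle-rich side. CD36, which takes up long-chain fatty acids at the cell surface, lay between 6.88 and 7.84 (median 7.40) in the muscle-rich arrays and between 4.98 and 6.50 (median 5.73) in the muscle-poor arrays, and its adjusted difference was 1.69 ± 0.36. ACADL, the long-chain acyl-CoA dehydrogenase of the mitochondrion, lay between 5.43 and 6.46 (median 6.09) and between 3.56 and 4.77 (median 4.36), with a difference of 1.85 ± 0.36. ACAA2, the thiolase that closes each round of the cycle, lay between 4.52 and 5.73 (median 5.42) and between 2.68 and 4.16 (median 3.86), with a difference of 1.39 ± 0.39. The differences of these 3 enzymes and carriers were at least 1.23 within AMI/Placebo as well. CD36 is also made by macrophages, capillary endothelium and adipocytes, whose lists are given below.

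All 20 measured genes of fatty acid oxidation had a positive adjusted difference, 7 of 20 of at least 1, with 3 counted. The median of the list was 0.66 adjusted, 0.85 without the covariate, 0.36 within AMI/Placebo and 0.97 within AMI/S-endMSCs*. The mean of the list lay between -0.06 and 1.01 in the muscle-rich arrays and between -1.05 and -0.19 in the muscle-poor arrays, with no overlap. The trifunctional protein that carries out the middle steps of the cycle was higher in both its chains, HADHA (1.29 ± 0.37) and HADHB (1.13 ± 0.46), and these, like ETFDH (1.33 ± 0.40), which passes the electrons on to ubiquinone, overlapped between the sides. Those 3 were named after their values were seen. The carnitine transferases CPT1A and CPT2 had differences of 0.12 ± 0.31 and 0.01 ± 0.30, so the members of the list were unequal. No other form of these transferases is described here. The carnitine transferases were also named after their values were seen.

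Respiratory chain genes had smaller differences than the contractile genes. NDUFA12, an accessory subunit of complex I, was the counted member, with levels between 6.65 and 7.79 (median 7.24) in the muscle-rich arrays and between 5.72 and 6.63 (median 6.41) in the muscle-poor arrays and a difference of 1.10 ± 0.30. Of 29 measured subunits, 25 had a positive difference and 2 of at least 1. The median was 0.46 adjusted and 0.57 without the covariate, but it was 0.08 within AMI/Placebo and 0.88 within AMI/S-endMSCs*. In AMI/Placebo the mean of the list was 0.70 in replicate 2, -0.33 in replicate 4 and -0.18 in replicate 1, all muscle-rich, and -0.11 in the muscle-poor replicate 3. So in AMI/Placebo the respiratory chain and the sarcomere did not order the arrays alike.

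The citric acid cycle had the same form. CS, citrate synthase, lay between 7.63 and 8.81 (median 8.25) in the muscle-rich arrays and between 5.60 and 7.48 (median 7.33) in the muscle-poor arrays without overlap, and its difference of 0.84 ± 0.44 was below the threshold of 1. All 17 measured genes of the cycle and of pyruvate dehydrogenase had a positive adjusted difference. The median was 0.53 adjusted, 0.13 within AMI/Placebo and 0.94 within AMI/S-endMSCs*. An adjusted difference of at least 1 was found in 1 of 17. That member was PDK4, the kinase that turns pyruvate dehydrogenase off when fat is burnt, with 1.57 ± 0.72, with 3.01 within AMI/S-endMSCs* and 0.13 within AMI/Placebo. PDK4 was named after its values were seen. Mitochondrial ribosomal proteins had a median of 0.07, with 0 of 17 at least 1, and cytosolic ribosomal proteins had a median of -0.17 (0.080 with the score as a continuous covariate), with 0 of 30 past 1 in either direction. Glycolytic genes had a median of -0.18. Among them LDHA, the lactate dehydrogenase chain that favours lactate formation, had levels between 6.80 and 9.10 (median 7.23) in the muscle-rich arrays and between 7.57 and 10.04 (median 8.85) in the muscle-poor arrays, with a difference of -2.08 ± 0.61. GAPDH, from the middle of the pathway, had a difference of 0.18 ± 0.31.

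The other counted genes on the muscle-rich side came from outside the lists. SERPINB2, the plasminogen activator inhibitor of type 2, lay between 4.48 and 6.96 (median 5.15) in the muscle-rich arrays and between 1.51 and 3.78 (median 3.004) in the muscle-poor arrays, with a difference of 2.04 ± 0.58. USP13, a deubiquitinating enzyme, lay between 6.16 and 8.14 (median 7.14) and between 3.97 and 5.94 (median 5.35), with a difference of 1.97 ± 0.48. FMO2, a flavin-containing monooxygenase, lay between 3.82 and 5.12 (median 4.78) and between 2.46 and 3.61 (median 3.25), with a difference of 1.80 ± 0.35. For USP13 and FMO2 the muscle-rich AMI/S-endMSCs* arrays were the 3 highest of the 12. KLHL31, a kelch-like protein of muscle, had a difference of 1.45 ± 0.41, and 0.64 within AMI/Placebo. The gene listed as LOC100520216, which carries no name in the tables used, had a difference of 1.72 ± 0.36.

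Of the 6 counted genes with smaller differences, NDUFA12 is described above, and the other 5 were chosen after their values were seen. They were B3GALT2, a galactosyltransferase (1.37 ± 0.39), LOC100524239 (1.17 ± 0.35), SVEP1, an extracellular adhesion protein made by mesenchymal cells (1.09 ± 0.29), CCND2, cyclin D2 (1.07 ± 0.48), and ACSS2, which makes acetyl-CoA from acetate (1.002 ± 0.25). SVEP1 had its larger difference within AMI/Placebo, 1.52 against 0.67 within AMI/S-endMSCs*, while 19 of the 21 had it within AMI/S-endMSCs*. The share over all genes was not taken, and the muscle-rich AMI/S-endMSCs* arrays had the highest scores.

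On the muscle-poor side the counted genes were few. NCAPD2, a subunit of the condensin that packs chromosomes for mitosis, lay between 3.37 and 4.20 (median 3.91) in the muscle-rich arrays and between 4.27 and 4.87 (median 4.74) in the muscle-poor arrays, with a difference of -1.01 ± 0.29. PCLAF, a partner of the replication clamp PCNA, lay between 2.63 and 3.09 (median 2.995) and between 3.22 and 4.98 (median 3.86), with a difference of -1.002 ± 0.40. A separate probe set of PCLAF had a difference of -1.03 and did not overlap either. SH3PXD2B, a scaffold protein of podosomes, the adhesions with which cells degrade matrix, lay between 4.66 and 5.62 (median 5.22) and between 5.68 and 6.18 (median 5.99), with a difference of -1.01 ± 0.25. The gaps between the sides were narrow, 0.07 for NCAPD2, 0.13 for PCLAF and 0.06 for SH3PXD2B. The largest difference belonged to LOC100621421, a gene without a name in the tables used, which lay between 1.72 and 3.81 (median 2.25) and between 3.98 and 5.54 (median 4.78), a difference of -2.28 ± 0.55.

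Both NCAPD2 and PCLAF serve dividing cells, and the cell division list, which holds neither, lay lower in muscle-rich arrays as well. All 14 measured genes had a negative difference and 9 of 14 of -1 or less, beside 2.13% of all genes, with 0 counted. The median was -1.12 adjusted, -0.80 without the covariate, -1.04 within AMI/Placebo and -1.34 within AMI/S-endMSCs*. TOP2A, the topoisomerase that untangles replicated DNA, lay between 3.74 and 5.38 (median 4.23) in the muscle-rich arrays and between 3.90 and 6.89 (median 5.23) in the muscle-poor arrays, with a difference of -1.50 ± 0.61. ANLN, anillin of the cleavage furrow, lay between 2.90 and 4.74 (median 2.98) and between 3.11 and 5.66 (median 4.36), with a difference of -1.74 ± 0.58. The mean of the list was not uniformly high on the muscle-poor side. It was 1.33 in AMI/S-endMSCs replicate 3, 0.76 in AMI/Placebo replicate 3 and 0.65 in AMI/S-endMSCs* replicate 2, but -0.02, -0.19 and -0.24 in AMI/S-endMSCs replicates 2, 4 and 1. The sides overlapped, with 0.27 and 0.04 in AMI/Placebo replicates 2 and 1 and values between -0.75 and -0.55 in the other muscle-rich arrays. With the score as a continuous covariate, the median was -0.36. Dividing cell types were not told apart.

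**Figure D3:**
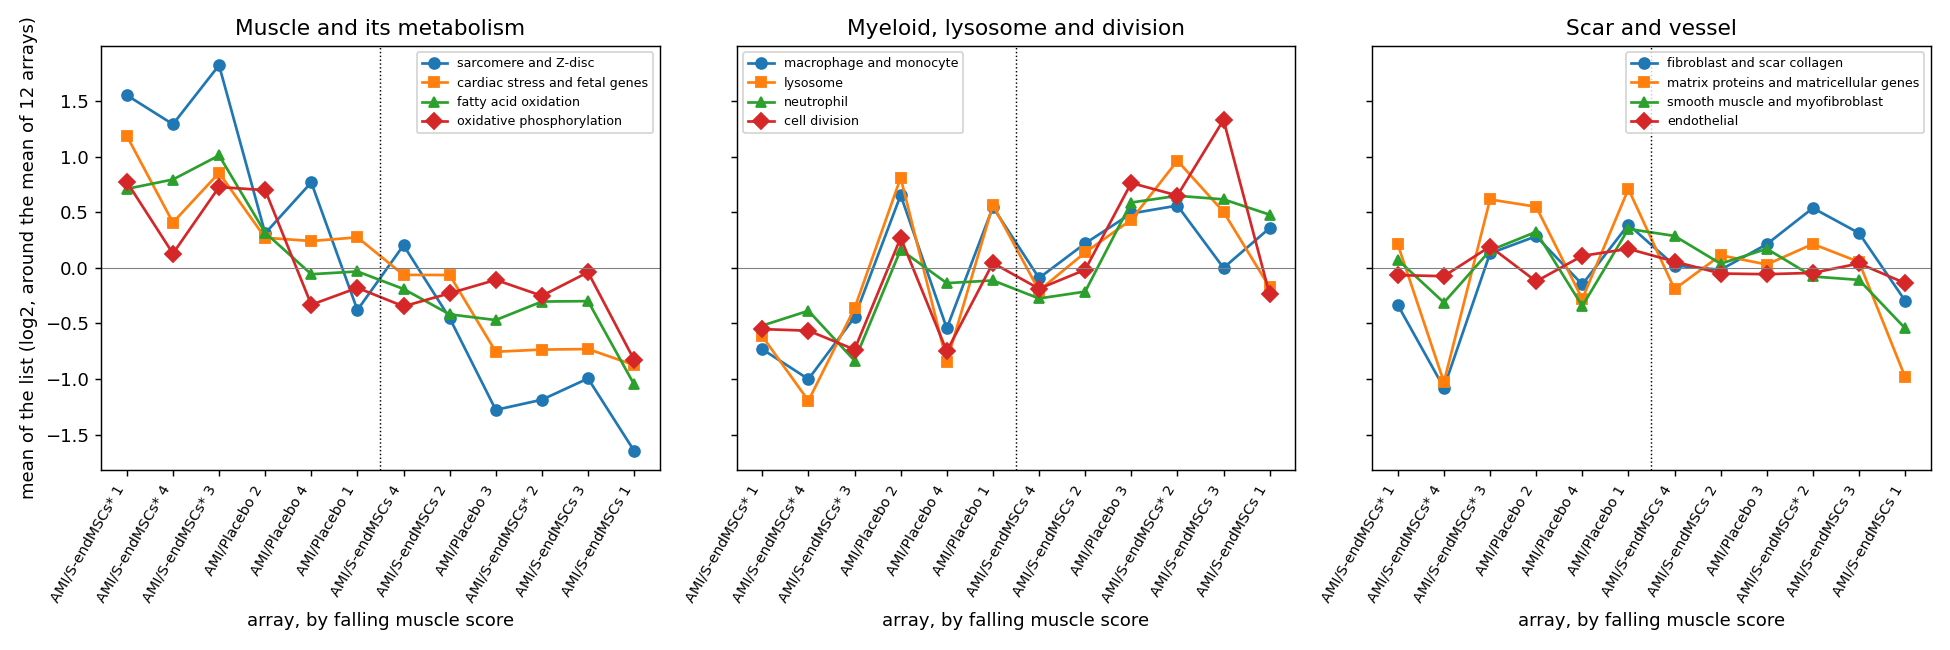
Mean of 12 gene lists in each array (log2, each gene around its mean over 12 arrays), with the arrays by falling muscle score and the dotted line between the sides. The muscle lists are mostly higher on the left, but not in every array. The sarcomere mean is -0.38 in AMI/Placebo replicate 1 and 0.20 in AMI/S-endMSCs replicate 4. The oxidative phosphorylation mean is -0.33 and -0.18 in AMI/Placebo replicates 4 and 1. The lysosome and macrophage lists are above 0 in AMI/Placebo replicates 2 and 1 and mixed on the muscle-poor side, where the lysosome mean runs from -0.21 to 0.96. The endothelial list stays between -0.14 and 0.19.

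Most lysosomal and macrophage genes had negative adjusted differences, larger within AMI/S-endMSCs* than within AMI/Placebo by the median, and none was counted. SPP1, osteopontin, which macrophages of healing infarcts secrete in quantity, lay between 4.20 and 9.67 (median 5.08) in the muscle-rich arrays and between 7.54 and 10.55 (median 9.31) in the muscle-poor arrays. Its adjusted difference was -3.77 ± 1.15, with -1.78 within AMI/Placebo and -5.77 within AMI/S-endMSCs*. AMI/Placebo replicates 1 and 2, on the muscle-rich side, had levels of 9.53 and 9.67, inside the muscle-poor range, while the other 4 muscle-rich arrays lay between 4.20 and 5.40. FCER1G, the signalling chain of Fc receptors, lay between 5.74 and 8.61 (median 7.02) and between 7.24 and 8.86 (median 8.29), with a difference of -1.61 ± 0.51. LGALS3, galectin 3, had a difference of -1.86 ± 0.54, which was -0.44 within AMI/Placebo, and was named after its values were seen.

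Of 22 measured macrophage and monocyte genes, 18 had a negative difference, 6 of -1 or less, and 0 were counted. The median was -0.49 adjusted, -0.34 without the covariate, -0.21 within AMI/Placebo and -0.99 within AMI/S-endMSCs*. The members were unequal. SPP1, LGALS3, CAPG, an actin-capping protein of phagocytes (-1.46 ± 0.44), and the scavenger receptor MSR1 (-1.31 ± 0.54) had large differences, while CD14 (0.03 ± 0.29), the mannose receptor MRC1 (-0.36 ± 0.30) and the complement gene C1QB (0.12 ± 0.47) had small ones. These were named after their values were seen, and the mean level of CD14, 2.67, was below the median of all probe sets. The mean of the macrophage list was 0.54 and 0.65 in AMI/Placebo replicates 1 and 2 and -0.54 in replicate 4, all muscle-rich, so it did not mirror the muscle score within AMI/Placebo.

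All 17 measured lysosomal genes had a negative adjusted difference, and 9 of 17 one of -1 or less, with 0 counted. CTSK, cathepsin K, which degrades collagen, lay between 4.99 and 9.28 (median 6.09) in the muscle-rich arrays and between 6.91 and 8.74 (median 7.44) in the muscle-poor arrays. Its difference was -1.49 ± 0.82, but it was 0.04 within AMI/Placebo and -3.02 within AMI/S-endMSCs*. CTSH, cathepsin H, had a difference of -1.28 ± 0.54. The median of the list was -1.06 adjusted and -0.61 without the covariate, and it was -0.30 within AMI/Placebo and -1.59 within AMI/S-endMSCs*. The adjusted value thus rested largely on AMI/S-endMSCs*. There the mean of the list was 0.96 in replicate 2 and -0.62, -1.20 and -0.37 in replicates 1, 4 and 3. Without replicate 2 only the AMI/Placebo difference remains, with the same median of -0.30.

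Neutrophil genes with the largest differences lay in the same direction. S100A8, a calcium-binding protein of neutrophils and monocytes, lay between 2.17 and 4.94 (median 2.88) in the muscle-rich arrays and between 3.27 and 6.35 (median 5.35) in the muscle-poor arrays, with a difference of -2.78 ± 0.60. It was -1.99 within AMI/Placebo and -3.57 within AMI/S-endMSCs*. MMP9, the gelatinase that neutrophils store, lay between 2.41 and 4.78 (median 3.28) and between 3.69 and 5.91 (median 4.94), with a difference of -1.91 ± 0.60. ARG1, arginase (-2.80 ± 0.65), and S100A12 (-2.89 ± 0.63) were named after their values were seen. The other 8 of 12 measured neutrophil genes had differences between -0.85 and 0.55, and the median of the list was -0.37. The granule gene MPO had a level between 1.55 and 2.11 (median 1.68) in the muscle-rich arrays. In the muscle-poor arrays it lay between 1.40 and 2.17 (median 1.67). Both sides were below the median of all probe sets. What part phagocyte RNA had in the other differences was not tested.

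Lymphocyte lists had small medians. T and NK cell genes had a median of -0.18, with 1 of 24 at -1 or less. That member was NKG7, a granule protein of cytotoxic cells, with -1.36 ± 0.40, while CD2, the T cell adhesion receptor, had -0.64 ± 0.43. The 6 measured B and plasma cell genes had a median of -0.37, in which CD79A, the signalling chain of the B cell receptor, had -0.02 ± 0.26 and PRDM1, the factor of plasma cells that macrophages and T cells also use, -1.45 ± 0.40. Genes of MHC class II presentation had a median of -0.35 adjusted and -0.00 without the covariate, and the chain SLA-DRA had -0.03 ± 0.31. Type I interferon response genes had a median of 0.43, which was 0.90 within AMI/Placebo and -0.05 within AMI/S-endMSCs*. In this list the mean was 1.06 and 0.86 in AMI/Placebo replicates 1 and 2 and -0.41 in replicate 4, so the arrays of the muscle-rich side did not go together.

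Collagen genes did not run opposite to muscle genes array by array. Of 14 measured collagen genes, 11 had a negative difference, 3 of -1 or less and 0 counted, with a median of -0.33 adjusted, -0.19 without the covariate, -0.02 within AMI/Placebo and -0.96 within AMI/S-endMSCs*. COL1A1, the main collagen of scar, lay between 6.36 and 10.56 (median 9.79) in the muscle-rich arrays and between 9.31 and 10.53 (median 10.40) in the muscle-poor arrays, with a difference of -1.16 ± 0.78. The lowest level belonged to AMI/S-endMSCs* replicate 4, whose mean of the collagen list, -1.08, was the lowest of the 12 arrays, while the mean was 0.13 in AMI/S-endMSCs* replicate 3, which had the highest sarcomere mean. COL1A2, its partner chain, had a difference of -1.20 ± 0.62.

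Matrix genes split in both directions. Of 23 measured matrix and matricellular genes, 4 had a difference of at least 1 and 3 of -1 or less, and the median was -0.01. FN1, fibronectin, of the early provisional matrix, lay between 6.23 and 10.43 (median 8.22) in the muscle-rich arrays and between 8.44 and 10.54 (median 9.58) in the muscle-poor arrays, with a difference of -2.06 ± 0.85. VCAN, versican, had a difference of -1.82 ± 0.97. In the other direction CILP, a matrix protein that cardiac fibroblasts make, lay between 4.69 and 7.59 (median 5.37) and between 3.29 and 5.18 (median 4.06), with a difference of 2.06 ± 0.61. These 3 were named after their values were seen. The brightest genes of the list, SPARC and POSTN, which fibroblasts of the scar secrete, had differences of -0.52 ± 0.45 and -0.69 ± 0.52.

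Other cell types of the wall were represented by lists with 0 counted genes. Fibroblast identity genes had a median of -0.30 and CDH11, a fibroblast cadherin, a difference of -0.93 ± 0.47. Smooth muscle and myofibroblast genes had a median of 0.07, but ACTA2, the smooth muscle actin that myofibroblasts make, had -1.18 ± 0.47 and was named after its values were seen. Endothelial genes had a median of 0.08, with 0 of 13 past 1 in either direction, and PECAM1, the junction protein of endothelium, had -0.32 ± 0.31. Mesothelial genes had a median of 0.03, adipocyte genes of 0.13 and the 3 measured red blood cell genes of -0.16. Of the other matrix lists, collagen processing had a median of -0.15, with SERPINH1, the collagen chaperone, at -1.31 ± 0.44, matrix proteases and their inhibitors had one of -0.17, with MMP14 at 0.06 ± 0.28, and TGF-beta and BMP signalling had one of 0.08, with SMAD4 at 0.05 ± 0.35.

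**Figure D4:**
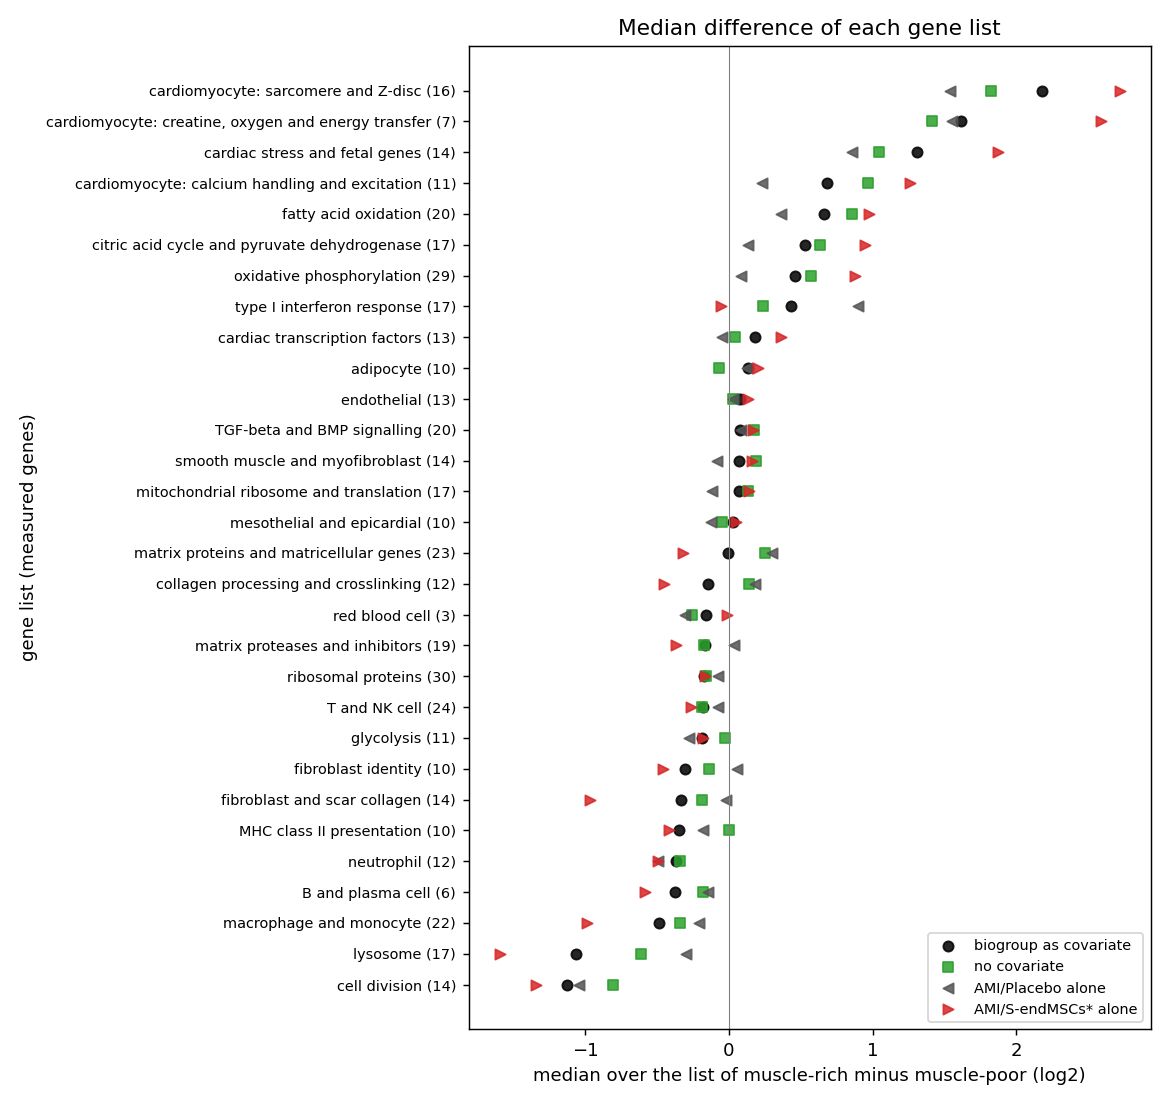
Median difference (log2, muscle-rich minus muscle-poor) of 30 gene lists, with the number of measured genes in brackets, adjusted for biogroup, without the covariate, and within AMI/Placebo and AMI/S-endMSCs* alone. The sarcomere list is highest by the adjusted median, 2.18, and cell division lowest, -1.12, and for the lysosome list the AMI/Placebo value, -0.30, and the AMI/S-endMSCs* value, -1.59, lie far apart.

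The biogroups that held both sides gave differences of unequal size. Within AMI/Placebo, 231 genes had a difference of at least 1 with all 3 muscle-rich arrays above replicate 3, and 182 had one of -1 or less with all 3 below it. Within AMI/S-endMSCs*, the same rule against replicate 2 gave 426 genes higher and 610 lower. With 1 muscle-poor array in each biogroup, these counts describe single pigs. The median of the sarcomere list was positive in both. The sign of a counted gene within a biogroup is fixed by the rule of no overlap.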

How the data were processed

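RNA of infarcted tissue of 12 pigs was hybridised to Affymetrix porcine gene arrays, 1 array per pig. The authors corrected the background, normalized and summarised the probe sets with RMA (oligo, version not given in the sources used here), and the deposited values are log2 expression values of 27558 probe sets. RMA normalizes the arrays to each other, so differences are relative, but the deposited values still differed in spread (interquartile ranges 1.66 to 2.51). Precision is limited by how few arrays there are. 0 columns were left unmapped. Of the probe sets, 11982 had 1 gene symbol in the platform table, 373 had several and 15203 were not listed. They stood for 10912 genes, and the brightest probe set by mean stood for a gene that had several (969 genes). Unnamed probe sets that met the counting rule numbered 21 higher and 4 lower and are not described.

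The model in limma 3.58.1 (R 4.3.3) held biogroup and side for all 12 arrays, with eBayes for the standard errors, and was tested on simulated data. Figures were drawn with Python 3.11.15. No p-value is given because the arrays were split by measured values. The members and the 30 gene lists were chosen with earlier results of these data known. Named genes were the 15 with the largest difference in each direction among counted genes whose higher side lay above the median of all probe sets (2.78), up to 4 counted members of each list, and the 2 brightest members of a list with none. Genes outside this rule were chosen after their values were seen. Alternatives were other splits of the arrays, normalizations, covariates and weights, a replicate block, other count rules and leaving out each array. Each biogroup alone, and the plain difference without AMI/S-endMSCs replicate 1, were added after seeing the data. The replicate numbers of the biogroups name separate pigs.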

Additional observations from a re-analysis of the deposited data

Results flagged for a closer look

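AMI/S-endMSCs replicate 1 lay far from the other 5 muscle-poor arrays in several measures, each time as the lowest. Its muscle score was -2.945 (next lowest -0.7767) and its mean correlation with the other arrays was 0.8213 (next lowest 0.8942). Its mean of the fatty acid oxidation list was -1.05 (next lowest -0.4706), that of the citric acid cycle list -1.171 (next lowest -0.2804), that of the mitochondrial ribosome list -0.4168 (next lowest -0.1312) and that of the matrix protein list -0.9835 (next lowest -0.1924). Among the muscle-rich arrays, TBX20 had its highest level, 6.697, in AMI/S-endMSCs* replicate 3 (next highest 5.869). The gap to the nearest array was compared with the range of the 6 arrays for 106 such groups, and chance flags about 1 in 20 of them.

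The mean of the fibroblast identity list was higher in all 3 muscle-rich arrays than in the muscle-poor array within AMI/Placebo, and lower in all 3 within AMI/S-endMSCs*. The median difference of its genes was 0.05832 within AMI/Placebo and -0.4592 within AMI/S-endMSCs*. The difference between the biogroups was not tested.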

How the results depend on the processing

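Of the 25 counted genes, 16 stayed counted after quantile normalization. Splits by the sarcomere list or into 2 against 2 within each biogroup moved arrays across the line. The rule of no overlap then asks for the reverse order of some arrays, so 0 of the 25 could stay counted. The signs of the 25 differences were the same in all alternatives. Where arrays were only left out or weighted, the covariate dropped or the threshold changed, the rule of no overlap fixes the sign. The count of genes higher on the muscle-rich side, 21, was 54 with the split by the sarcomere list and 1 with the split within biogroups. It was 222 with the 4 highest against the 4 lowest scores, 32 with median centring, 39 with a threshold of 0.58 and 230 with overlap allowed. The count of genes lower, 4, was 1 with the split within biogroups, 1 without the covariate, 1 with a continuous score and 1 with the interquartile range as a covariate. It was 32 with the 4 highest against the 4 lowest scores, 2 with median centring, 2 with array weights, 8 with a threshold of 0.58 and 232 with overlap allowed. Within AMI/Placebo alone the counts were 231 and 182, and within AMI/S-endMSCs* alone 426 and 610, by construction of fewer arrays to separate. Leaving out 1 array gave 18 to 66 genes higher and 3 to 10 lower. For genes higher, dropping replicate 1, 4 or 3 of AMI/Placebo gave 66, 47 or 34, and dropping replicate 4 or 2 of AMI/S-endMSCs gave 58 or 32. For genes lower, dropping AMI/Placebo replicate 2 gave 10.

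The median of the sarcomere list, 2.18, was 1.28 with the split within biogroups, 1.54 within AMI/Placebo and 1.54 to 2.72 leaving out 1 array. That of fatty acid oxidation, 0.66, was 0.355 with the split within biogroups, 0.362 within AMI/Placebo, 0.973 within AMI/S-endMSCs* and 0.362 to 0.973 leaving out 1 array. That of oxidative phosphorylation, 0.46, was 0.884 with the 4 highest against the 4 lowest, 0.878 within AMI/S-endMSCs* and 0.0833 to 0.878 leaving out 1 array. Collagen, -0.33, was -0.965 within AMI/S-endMSCs* and -0.965 to -0.0182 leaving out 1 array. Macrophage genes, -0.49, were at -0.986 within AMI/S-endMSCs* and -0.986 to -0.207 leaving out 1 array. Lysosomal genes, -1.06, were at -0.296 within AMI/Placebo and -1.59 to -0.296 leaving out 1 array. In these lists the ends of the ranges belong to AMI/Placebo replicate 3 and AMI/S-endMSCs* replicate 2, since leaving out either leaves 1 muscle-poor array in the adjusted difference. Cell division, -1.12, was -0.36 with a continuous score and -1.34 to -1.01 leaving out 1 array. The median of ribosomal proteins, -0.17, changed sign with a continuous score (0.080) and with the split within biogroups (0.111). Otherwise the cause was not tested.

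Around the biogroup means, same-numbered pigs had correlations from -0.184 to 0.397 (12 pairs, median 0.0474). Pigs of other numbers had correlations from -0.473 to 0.391 (36 pairs, median -0.027). The replicate 4 arrays had interquartile ranges of 1.80 (AMI/Placebo), 1.81 (AMI/S-endMSCs*) and 1.93 (AMI/S-endMSCs), the lowest after AMI/S-endMSCs replicate 1. Whether same-numbered arrays share more than a number was not tested. With a replicate block the lower count was 2, and 23 of the 25 genes stayed counted. There too, only the size of the difference could remove a gene. The block gave medians of 0.865 for oxidative phosphorylation, -0.0821 for collagen, -0.664 for lysosomal genes and 2.25 for the sarcomere list. Levels near 2.78, the median of all probe sets, may lie close to background.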
